A study of Mus musculus with 28 samples.

Results

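The genes described are 9 genes of the muscle side of the neuromuscular junction, out of 55536 genes counted in each library. They were chosen by name: the 5 subunits of the muscle nicotinic acetylcholine receptor (Chrna1, Chrnb1, Chrnd, Chrng and Chrne) and 4 genes that gather the receptor at the synapse (Lrp4, Musk, Dok7 and Rapsn). All 9 were present in all 28 libraries' tables. Levels are counts per M counts of the library (CPM), computed from the deposited counts, and comparisons between genes use CPM per kilobase of annotated exon.

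The muscle acetylcholine receptor is a channel of alpha, beta and delta subunits together with either gamma, in embryonic and denervated muscle, or epsilon, at the adult synapse. Agrin from the motor nerve binds LRP4 on the muscle membrane, LRP4 then activates the receptor tyrosine kinase MuSK, DOK7 binds MuSK from inside the cell and sustains its activity, and rapsyn anchors the receptors in clusters. In muscle, myogenic factors that bind E-box motifs switch on the subunit genes during differentiation. C2C12 cells, which fuse into myotubes without a nerve, are a classic model in which this receptor and its clustering were studied.

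The libraries came from 3 wild-type mouse cell lines in 7 groups of 4. The C2C12 myotubes were either in direct co-culture with EO771 or alone. EO771, a breast cancer line, was in co-culture with C2C12, in co-culture with MLg, or alone. MLg, a lung fibroblast line, was in co-culture with EO771 or alone. All lines were kept in the same serum-containing medium, and none of the 3 is a neuron line. Each line is a single established line, and the sources used here do not give how the 2 lines of a co-culture were parted for RNA extraction, nor whether the libraries of a group came from separate cultures. The p-values therefore measure only how far these libraries spread, which may partly be technical. Libraries are called by their labels' names, such as R3-1; what the R number stands for is not stated.

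Library totals were 27.6 M to 96.5 M counts, so that a count of 0 allows up to 0.0311 to 0.109 CPM (3 counts, counting error only). Marker genes were checked against the labels. The sum of 24 sarcomere and myotube markers was 951 to 4121 CPM in C2C12 with EO771 and 469 to 6612 CPM in C2C12 alone, against 8.50 to 23.2 CPM in all MLg libraries. The sum of 10 fibroblast markers was 21849 to 30293 CPM in the MLg libraries and 25124 to 34169 CPM in the C2C12 libraries, against at most 124 CPM in EO771 alone. Of 10 epithelial markers 1, Krt8, reached a mean of 1 CPM in EO771 alone, and Krt19, Cldn3 and Cldn4 were at 0 there. Markers of Schwann cells and neurons summed to a median of 2.82 CPM in C2C12 with EO771 and 2.75 CPM in C2C12 alone, with Chat and Slc18a3, which define cholinergic neurons, at 0 in all 8 libraries. Co-cultured libraries also held transcripts of genes specific to the partner line. Over 334 genes seen in C2C12 and at 0.2 CPM or less in every library of EO771 alone, EO771 with C2C12 had 0.870% to 2.19% of the C2C12 level, against 0.0182% to 0.0267% in EO771 alone. In the other direction, 49 genes specific to EO771 stood at 3.34% to 5.41% of the EO771 level in C2C12 with EO771, and at 0.0181% to 0.0394% in C2C12 alone. For the MLg pair, 308 MLg-specific genes averaged 1.55% ± 0.390 of the MLg level in EO771 with MLg, against 0.0250% ± 0.00366 in EO771 alone (SD, n = 4 each). The largest share was in MLg with EO771, where 53 EO771-specific genes stood at 5.97% to 12.9% of the EO771 level, against 0.0380% to 0.0561% in MLg alone. Every set was held to 0.2 CPM or less in each library of the receiving line grown alone. The low shares in the lines grown alone therefore follow from the selection. A rise of these genes in the receiving line itself was not tested.

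The subunit genes lie on mouse chromosomes 1, 2 and 11 (GRCm38 coordinates, GENCODE M21). Chrnd (chr1:87190607-87200070) and Chrng (chr1:87204657-87212694) follow each other on the plus strand of chromosome 1. Chrna1 (chr2:73563215-73580338) is on the minus strand of chromosome 2, and Chrnb1 (chr11:69784036-69795943) and Chrne (chr11:70614883-70619216) are on the minus strand of chromosome 11. The clustering genes are all on plus strands: Rapsn (chr2:91035620-91045729) and Lrp4 (chr2:91457511-91513779) on chromosome 2, Musk (chr4:58285960-58374303) on chromosome 4 and Dok7 (chr5:35056766-35087839) on chromosome 5. All 9 are annotated as protein coding. Rapsn shares 4 exon bases with Gm13778 on the opposite strand, and Chrne overlaps 4930544D05Rik on the opposite strand without sharing exon bases; whether reads were counted by strand is not stated in the sources used here, and these neighbours averaged 1.92 CPM and 0.101 CPM in C2C12 with EO771 against 1.76 CPM and 0.068 CPM in C2C12 alone.

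The upstream sequences of 4 subunit genes are shown because the levels of these genes differed: Chrna1 and Chrng were below 1 CPM in EO771 alone and in MLg, Chrnb1 was present in all 3 lines, and Chrne was at 1.13 CPM or less in all libraries. They are from RefSeq (GRCm38.p6), whose table matched 6 of the 9 members (Chrnd, Rapsn and Lrp4 had no entry), and cover the part of the 250 bases before the RefSeq start that lies outside annotated exons, read 5′ to 3′ on the gene's strand. Capitals mark E-boxes (CANNTG) and the N-box (CCGGAA or its complement TTCCGG), the motif known for synaptic expression of Chrne.
Chrna1, chr2:73580339-73580588, minus strand: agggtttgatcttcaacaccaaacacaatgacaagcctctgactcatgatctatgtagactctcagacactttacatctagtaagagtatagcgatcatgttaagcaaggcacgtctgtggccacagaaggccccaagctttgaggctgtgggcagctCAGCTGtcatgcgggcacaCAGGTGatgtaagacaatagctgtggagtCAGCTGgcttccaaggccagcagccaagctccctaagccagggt
Chrng, chr1:87205561-87205809, plus strand: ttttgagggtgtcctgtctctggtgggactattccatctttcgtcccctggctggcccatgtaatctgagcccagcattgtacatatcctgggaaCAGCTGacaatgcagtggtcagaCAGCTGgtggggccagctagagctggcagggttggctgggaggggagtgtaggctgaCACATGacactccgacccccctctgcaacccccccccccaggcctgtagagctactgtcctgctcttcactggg
Chrnb1, chr11:69795944-69796067, minus strand: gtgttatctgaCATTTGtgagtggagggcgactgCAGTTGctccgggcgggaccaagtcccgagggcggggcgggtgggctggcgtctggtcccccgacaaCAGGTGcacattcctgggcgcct
Chrne, chr11:70619217-70619444, minus strand: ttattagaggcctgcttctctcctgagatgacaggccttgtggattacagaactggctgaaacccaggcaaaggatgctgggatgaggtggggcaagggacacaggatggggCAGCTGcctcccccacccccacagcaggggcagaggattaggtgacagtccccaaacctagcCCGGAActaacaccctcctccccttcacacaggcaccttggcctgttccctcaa
Chrna1 had E-boxes 92, 73 and 44 bases before the start, Chrng had them at 155, 132 and 75 bases, and Chrnb1 at 119, 96 and 29 bases. Chrne had 1 E-box at 138 bases and was the only one of the 6 matched members with an N-box, at 76 bases. The form CAGCTG, which is one kind of CANNTG, was found in Chrna1, Chrng, Chrne and Musk, in none of the Chrnb1 and Dok7 windows. Over the same 250 bases of 27018 RefSeq promoters, 66.1% held CANNTG, 12.8% held CAGCTG, 17.1% held CAGGTG or its complement CACCTG (also a kind of CANNTG) and 12.2% held the N-box, each on either strand. The Chrng window lies inside the annotated span of Chrng, in an intron of a longer transcript, and the upstream edge of the Chrnb1 stretch is the end of the neighbouring gene Fgf11.

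In the C2C12 myotubes the receptor genes were abundant in their embryonic form, and Chrne was nearly absent. Chrna1 had 71.5, 430, 384 and 368 CPM in C2C12 with EO771 (R3-1, R5-1, R5-2 and R6-1), against 321, 83.8, 95.1 and 544 CPM in C2C12 alone (R2-1, R3-1, R3-2 and R5-1). The library R3-1 of the co-culture and both R3 libraries of C2C12 alone were low, and the other 5 libraries were high. Averaged per kilobase, Chrna1 stood at 71.4 ± 37.2 CPM in C2C12 with EO771 and 59.5 ± 49.7 CPM in C2C12 alone (SD, n = 4 each), the highest of the 9 members in both groups.

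The embryonic gamma subunit gene followed the same libraries. Chrng had 38.9, 164, 128 and 85.8 CPM in C2C12 with EO771, against 169, 10.6, 24.9 and 220 CPM in C2C12 alone, in the library order given for Chrna1. Chrnd, the delta subunit, had 22.1, 81.1, 73.5 and 56.1 CPM in C2C12 with EO771, against 84.9, 8.29, 16.0 and 125 CPM in C2C12 alone. For both genes the lowest 3 libraries were the R3 libraries, and the ranges of the 2 groups overlapped. Chrnb1, the beta subunit, had 17.2, 63.2, 63.4 and 60.4 CPM in C2C12 with EO771, against 57.6, 16.3, 19.6 and 86.9 CPM in C2C12 alone. Its co-cultured R3-1 library stood far below the other 3, which lay between 60.4 and 63.4 CPM.

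The adult subunit gene Chrne had 0.896, 0.768, 0.858 and 0.429 CPM in C2C12 with EO771, against 1.08, 0.0622, 0.419 and 1.13 CPM in C2C12 alone. The lowest value, in C2C12 alone R3-1, rests on 6 counts. Per exon length, Chrne made up 5.37%, 1.14%, 1.63% and 1.22% of the sum of Chrne and Chrng in C2C12 with EO771, against 1.54%, 1.43%, 3.98% and 1.25% in C2C12 alone. The share averaged 2.34% ± 2.03 in C2C12 with EO771 and 2.05% ± 1.29 in C2C12 alone (SD, n = 4 each; no test), and the ranges overlapped. The 2 highest shares were in R3 libraries, and the remaining R3 library, C2C12 alone R3-1, had 1.43%.

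**Figure D1:**
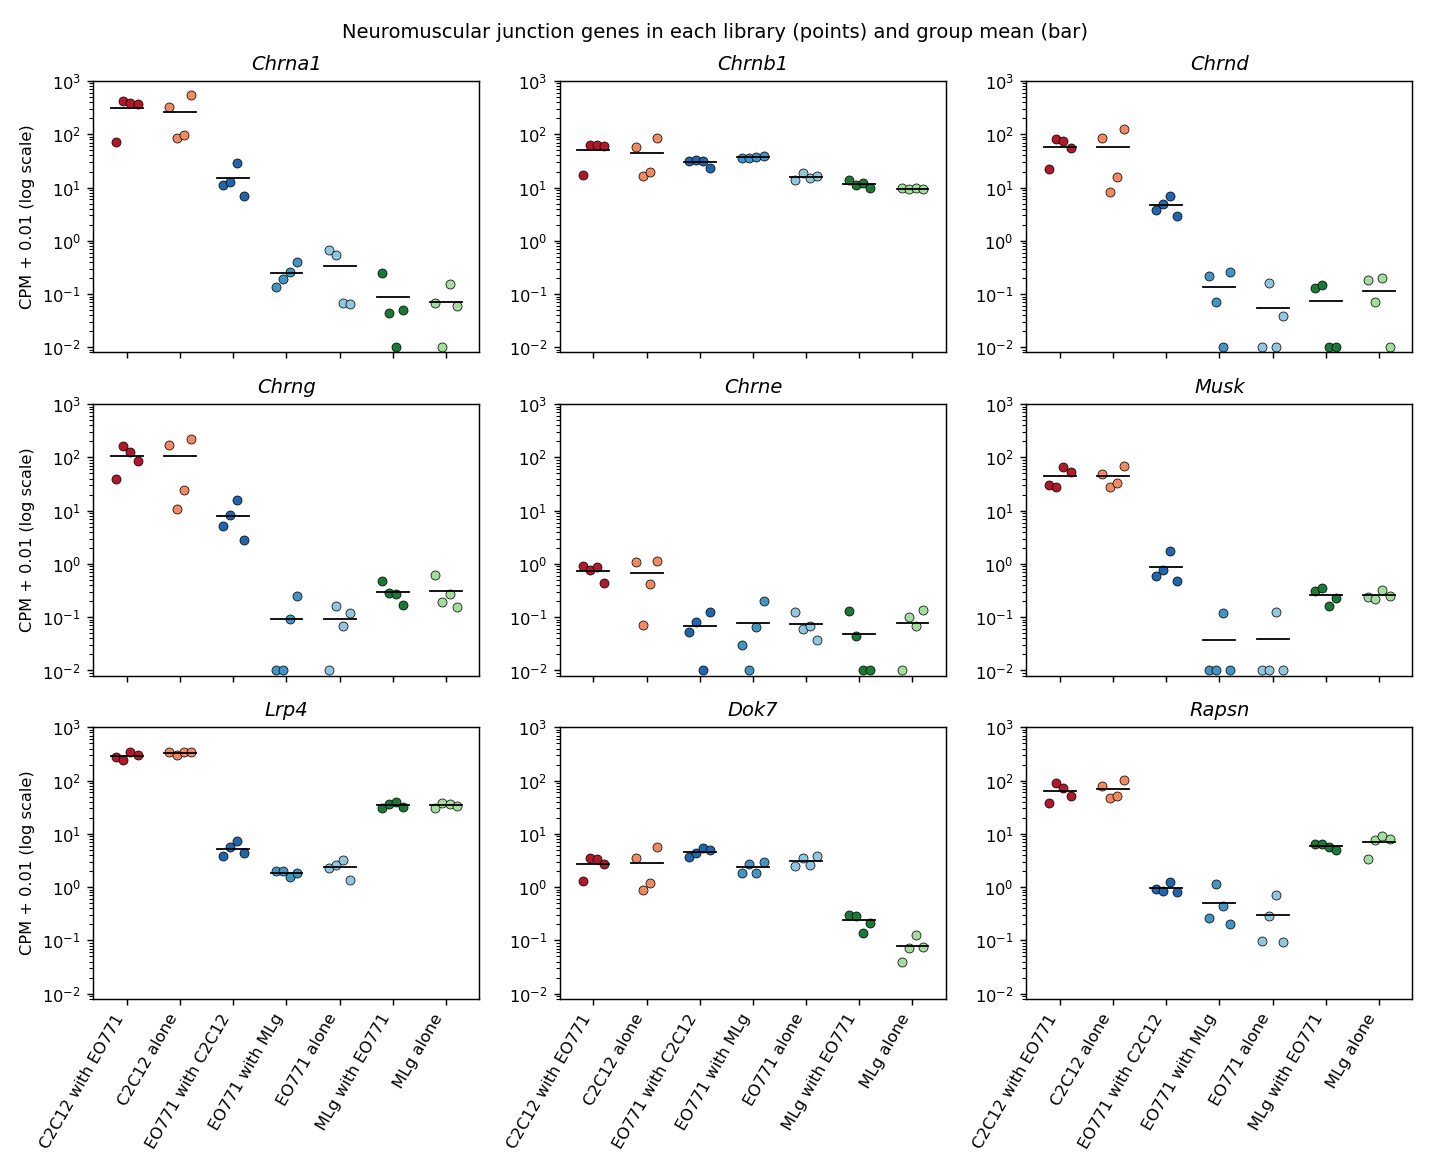
Level of each of the 9 genes in each of the 28 libraries (points, CPM + 0.01 on a log axis, so that a point at 0.01 is a count of 0) and the mean of each group of 4 (bars). Chrna1, Chrnd, Chrng, Musk, Lrp4 and Rapsn were highest in the 2 C2C12 groups, Chrnb1 was at 9.30 CPM or more in all libraries, and Dok7 overlapped between EO771 and C2C12.

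Of the clustering genes, Lrp4, the agrin receptor, was the steadiest member in the myotubes. Lrp4 had 276, 243, 337 and 300 CPM in C2C12 with EO771, against 338, 308, 348 and 347 CPM in C2C12 alone. The groups overlapped, with 3 of the 4 libraries of C2C12 alone above all of the co-cultured ones. Musk, the kinase, had 30.6, 27.6, 66.7 and 54.2 CPM in C2C12 with EO771, against 49.1, 27.6, 33.0 and 68.4 CPM in C2C12 alone. Rapsn, the anchoring protein's gene, had 38.6, 91.8, 72.3 and 51.7 CPM in C2C12 with EO771, against 80.7, 46.3, 52.4 and 104 CPM in C2C12 alone. Both groups spanned about the same range for Musk and for Rapsn.

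Dok7, the adaptor that keeps MuSK active, was the least abundant of the clustering genes in C2C12. It had 1.29, 3.54, 3.37 and 2.75 CPM in C2C12 with EO771, against 3.57, 0.891, 1.20 and 5.57 CPM in C2C12 alone, with the R3 libraries lowest in both groups. Per kilobase and relative to Chrna1 as 100, Dok7 averaged 1.09 ± 0.507 in C2C12 with EO771 and 1.14 ± 0.108 in C2C12 alone (SD, n = 4 each). On the same scale Chrnb1 averaged 31.1 ± 7.27 in C2C12 with EO771 and 32.1 ± 3.49 in C2C12 alone, and Rapsn averaged 65.8 ± 44.2 in C2C12 with EO771 and 94.1 ± 46.9 in C2C12 alone.

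The R3 libraries stood apart for most members. In the 5 other C2C12 libraries the mean level was 4.90 times that of the 3 R3 libraries for Chrna1, 3.74 times for Chrnb1, 5.43 times for Chrnd and 6.19 times for Chrng. The corresponding ratio was 3.34 for Dok7, 1.75 for both Musk and Rapsn, and 1.01 for Lrp4. For Chrne, at far lower counts, it was 1.86 over both groups and 0.764 within C2C12 with EO771, where the R3 library was the highest. Chrna1, Chrnd and Chrng thus had the largest of these ratios and Lrp4 the one nearest to 1. The summed sarcomere and myotube markers varied in the same libraries, at 951, 4121, 3611 and 2928 CPM in C2C12 with EO771 against 5119, 469, 870 and 6612 CPM in C2C12 alone. In such bulk RNA, fewer myotubes and less of a transcript per myotube cannot be told apart. Relative to 1000 CPM of these markers, Chrnd stood at 23.2, 19.7, 20.4 and 19.2 CPM in C2C12 with EO771 and at 16.6, 17.7, 18.4 and 18.8 CPM in C2C12 alone. Lrp4 on that scale ran from 58.9 to 290 CPM in C2C12 with EO771 and from 52.5 to 655 CPM in C2C12 alone. The part of myotube content in the members' levels was not tested.

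**Figure D2:**
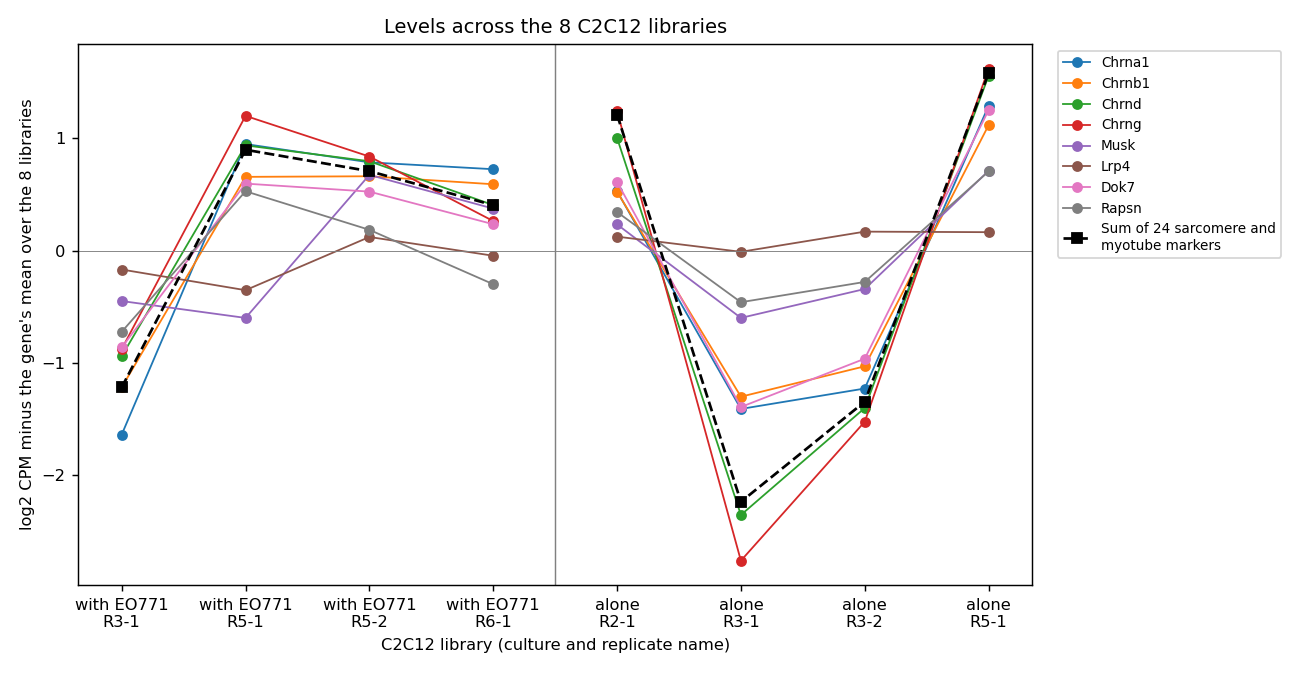
Level of 8 members (Chrne left out for its low counts) in each of the 8 C2C12 libraries, as log2 CPM minus the gene's mean over the 8 libraries; the dashed line is the sum of the 24 sarcomere and myotube markers on the same scale. The 3 R3 libraries lie low for the receptor subunits and the markers, while Lrp4 stays near 0.

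The first comparison asked whether contact with EO771 cells altered these genes in the myotubes. None of the 9 members passed the test (edgeR's quasi-likelihood F test, adjusted p under 0.05 by the Benjamini-Hochberg method over all 16625 genes tested), where 2.68% of all genes tested were called. DESeq2 called 0 of the 9 as well, and 1 member, Lrp4, had an unadjusted p under 0.05. Lrp4 had a log2 fold change of -0.27 (SE 0.12, unadjusted p = 0.0461, adjusted p = 0.451 in edgeR's fit). The median log2 fold change was -0.03 over the 9 members and 0.00 over all genes tested. Chrna1, at 0.23 (SE 0.65, adjusted p = 0.951 in edgeR), and Chrng, at -0.05 (SE 0.80, adjusted p = 0.993 in edgeR), show how wide the spread between libraries left the estimates.

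Within R numbers the 2 groups could be set side by side in R3 and R5, while R2 held C2C12 alone and R6 C2C12 with EO771 in this comparison. In R3, Chrna1 had 71.5 CPM in the co-culture, against 83.8 and 95.1 CPM alone. In R5 it had 430 and 384 CPM in the co-culture, against 544 CPM alone. Chrna1 was thus lower in the co-culture within both R numbers. Chrng was higher in the co-culture in R3 (38.9 CPM, against 10.6 and 24.9 CPM alone) and lower in R5 (164 and 128 CPM, against 220 CPM alone). With the R number as a replicate block, Chrna1 had a log2 fold change of -0.40 (SE 0.14, unadjusted p = 0.0157, adjusted p = 0.319 in edgeR) and Chrng one of 0.24 (SE 0.37, adjusted p = 0.944 in edgeR). Without the R3 libraries all 9 log2 fold changes were below 0, from -0.71 for Chrne (SE 0.41, adjusted p = 0.671 in edgeR) to -0.16 for Chrna1 (SE 0.22, adjusted p = 0.956 in edgeR). That fit held 3 libraries of C2C12 with EO771 and 2 of C2C12 alone, and its median over all genes tested was -0.006. The sarcomere and myotube markers summed to 2928 to 4121 CPM in those co-cultured libraries, against 5119 and 6612 CPM in those alone. The 9 signs come from the same libraries and are not independent, and the part of myotube content in them was not tested. Chrnd stood at -0.60 (SE 0.22, unadjusted p = 0.0239, adjusted p = 0.324 in edgeR) and Chrng at -0.65 (SE 0.26, adjusted p = 0.409 in edgeR) in that fit. No member was called in any of these fits.

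**Figure D3:**
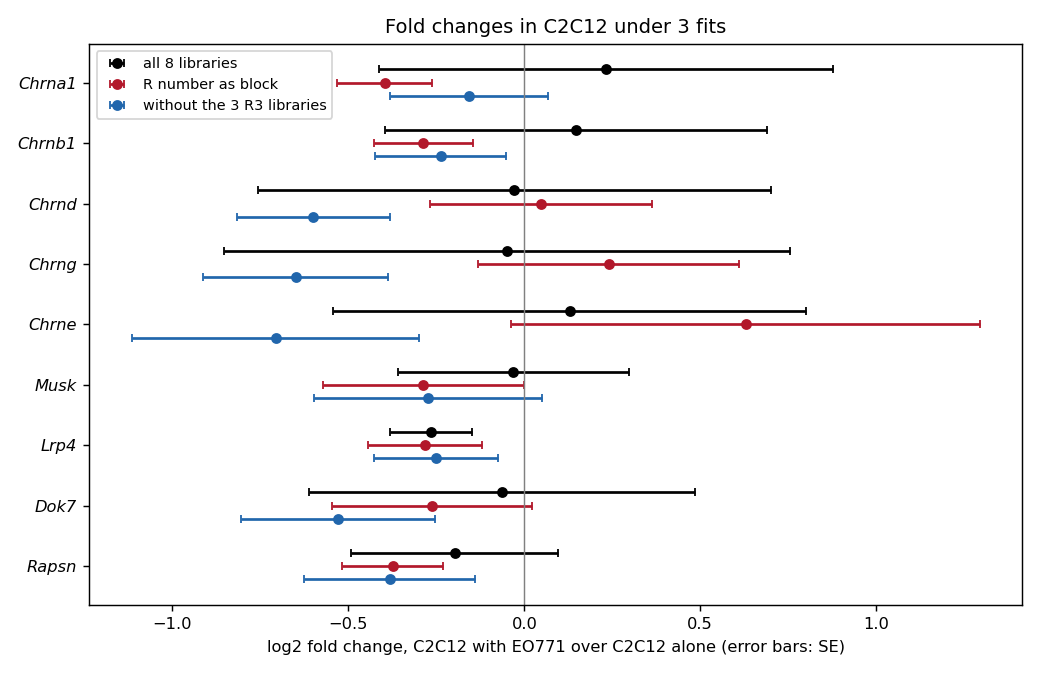
Log2 fold change of each member in C2C12 with EO771 over C2C12 alone, with its SE, in the fit of all 8 libraries, with the R number as a block, and without the 3 R3 libraries. In the fit of all 8 libraries 3 estimates lie above 0 and 6 below it. Without the R3 libraries, which leaves 3 co-cultured libraries against 2 alone, all 9 lie below 0. None passed the test.

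Outside Lrp4's own family, the wider machinery of the synapse gave no calls in the myotubes. Over all genes tested 2.68% were called, a share at which lists of this size hold few calls or none. None of the 13 tested genes of agrin, synaptic matrix and cholinesterase, none of 33 scaffold and MuSK signalling partners, none of 22 regulators of synaptic and denervation transcription and none of 10 denervation-sensitive genes was called. These lists held 1, 2, 1 and 1 genes with an unadjusted p under 0.05. Agrn, the gene of agrin, averaged 175 CPM in C2C12 with EO771 and 132 CPM in C2C12 alone, and Ache, the cholinesterase that ends transmission, averaged 1.98 CPM in C2C12 with EO771 and 1.95 CPM in C2C12 alone. Myog, a myogenic factor that acts on the subunit promoters, averaged 39.0 CPM in C2C12 with EO771 and 46.7 CPM in C2C12 alone. Of the neuronal nicotinic subunits, 1 of 11 had enough counts for the test, Chrnb2, which averaged 2.79 CPM in C2C12 with EO771 and 1.86 CPM in C2C12 alone and was not called.

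Lrp4's own family held the 2 called genes of these lists, both higher, where 2.58% of all genes tested were higher. Lrp2, an endocytic receptor of absorptive epithelia, averaged 4.32 CPM in C2C12 with EO771 and 0.04 CPM in C2C12 alone (log2 fold change 6.63, SE 0.63, adjusted p = 0.000414 in edgeR). Lrp8, the reelin receptor, averaged 14.1 CPM in C2C12 with EO771 and 3.20 CPM in C2C12 alone (log2 fold change 2.09, SE 0.23, adjusted p = 0.000932 in edgeR). These 2 genes had 57.5 CPM and 169 CPM in EO771 alone, and Krt8, the epithelial keratin, also rose in C2C12 with EO771 (5.52 CPM against 0.06 CPM in C2C12 alone; 93.3 CPM in EO771 alone). The part of EO771 transcripts in these rises was not tested.

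In EO771 cells taken from culture with C2C12, 6 of the 8 tested members rose against EO771 alone, where 33% of all 15794 genes tested were called (18.7% higher, 14.3% lower). Of the 6, Chrna1, Chrnd, Chrng and Musk passed the count filter only through the libraries with C2C12. Being tested thus required a high level there, which largely set the direction of their calls and the count of 6. The largest rises were of subunits that were below 1 CPM in every library of EO771 alone. Chrna1 had 7.05, 11.3, 12.6 and 28.3 CPM in EO771 with C2C12 (R3-1, R5-1, R5-2 and R6-1), against 0.675, 0.539, 0.0571 and 0.0561 CPM in EO771 alone (R3-1, R3-2, R5-1 and R6-2). Its log2 fold change was 5.39 (SE 0.55, adjusted p = 9.27e-07 in edgeR). Chrng had 2.85, 5.10, 8.33 and 15.9 CPM in EO771 with C2C12, against 0, 0.154, 0.0571 and 0.112 CPM in EO771 alone. Every library of the co-culture was above every library of EO771 alone for both genes, and R6-1 was the highest.

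Chrnd had 2.91, 3.75, 4.96 and 7.05 CPM in EO771 with C2C12, against 0, 0.154, 0 and 0.0281 CPM in EO771 alone. Musk had 0.466, 0.591, 0.761 and 1.73 CPM in EO771 with C2C12, against 0, 0, 0.114 and 0 CPM in EO771 alone. Neither gene's groups overlapped, and both rest on a handful of counts in EO771 alone, 7 for Chrnd and 4 for Musk over the 4 libraries. The log2 fold changes were 6.47 for Chrng (SE 0.72, adjusted p = 2.47e-06), 6.43 for Chrnd (SE 0.70, adjusted p = 1.93e-06) and 4.74 for Musk (SE 0.96, adjusted p = 0.000965, all in edgeR). Without EO771 alone R3-2 the value was 8.42 for Chrnd, and without EO771 alone R5-1 it was 7.98 for Musk.

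Lrp4 rose by a log2 fold change of 1.08 (SE 0.27, adjusted p = 0.00463 in edgeR), with 4.37, 3.84, 5.54 and 7.32 CPM in EO771 with C2C12, against 2.26, 2.62, 3.25 and 1.35 CPM in EO771 alone. Rapsn had 0.815, 0.928, 0.833 and 1.24 CPM in EO771 with C2C12, against 0.0880, 0.282, 0.713 and 0.0842 CPM in EO771 alone. Its groups did not overlap, but the adjusted p was 0.0552 in edgeR (log2 fold change 1.62, SE 0.63), and without EO771 alone R5-1 it was 0.00907, with a log2 fold change of 2.54. Chrne was not tested, with 8 counts over the 4 libraries of EO771 with C2C12 and 9 counts over those of EO771 alone.

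Muscle markers stood in the same co-cultured libraries. The 24 sarcomere and myotube markers summed to 136, 189, 269 and 533 CPM in EO771 with C2C12 (R3-1, R5-1, R5-2 and R6-1) against 15.3 to 18.9 CPM in EO771 alone, and all 19 tested ones rose. Tnnc2 alone of the 24 was at 0 in all 4 co-cultured libraries. That sum was 4.68% to 18.4% of its mean level in C2C12 with EO771, whereas the 334 C2C12-specific genes were at 0.870% to 2.19% of theirs. Of the members, Chrna1 stood at 2.25% to 9.04% of its level in C2C12 with EO771, Chrnd at 5.00% to 12.1%, Chrng at 2.74% to 15.2%, Musk at 1.04% to 3.86%, Rapsn at 1.28% to 1.96% and Lrp4 at 1.33% to 2.53%. The order of the libraries for Chrna1, Chrnd, Chrng and Musk was that of the sarcomere sum, with R3-1 lowest and R6-1 highest. With C2C12 counts subtracted at each library's share of the 334 genes, Lrp4 had a log2 fold change of -0.95 (adjusted p = 0.0338 in edgeR), and Musk no longer had enough counts to be tested. Chrna1, Chrnd and Chrng stood above that share of their C2C12 level in every library, so counts of them remained after this subtraction. At the share of the sarcomere sum, an alternative added after the values were seen, 3 members could be tested, Chrnb1, Dok7 and Lrp4, and of these Chrnb1 was called higher, Lrp4 lower and Dok7 not.

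**Figure D4:**
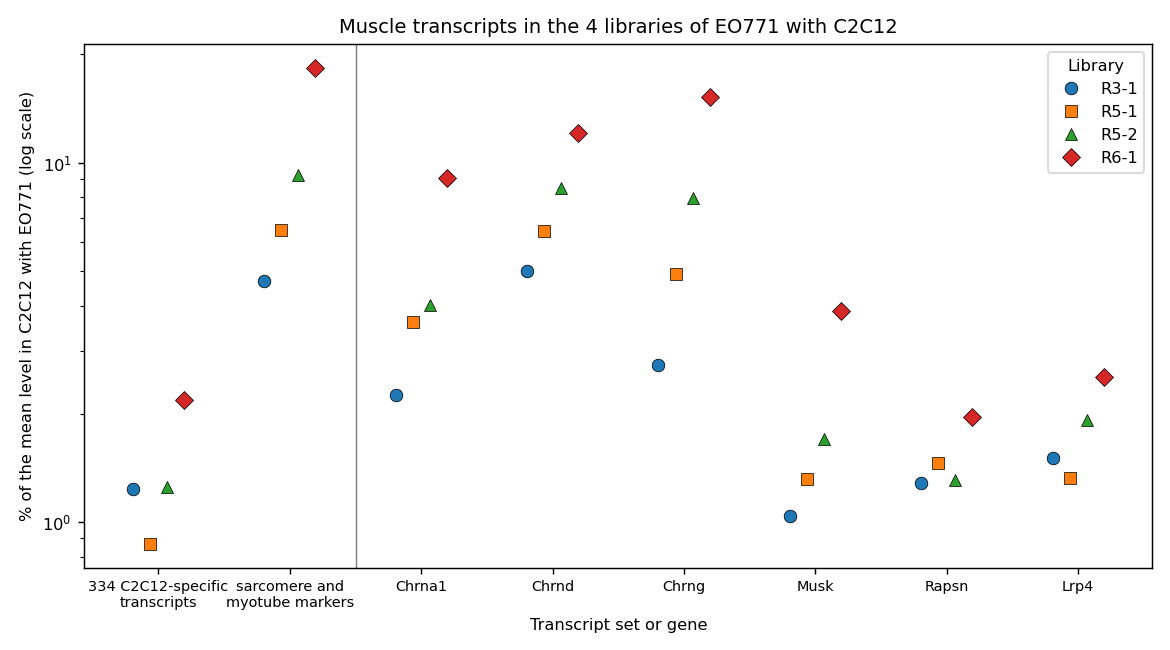
Levels in the 4 libraries of EO771 with C2C12 as a percentage of the mean level in C2C12 with EO771 (log axis), for the 334 C2C12-specific transcripts, the sum of the sarcomere and myotube markers, and 6 members. R6-1 is highest in every column. Without correction for the levels in EO771 alone, Musk, Rapsn and Lrp4 lie near the 334 genes, and Chrnd and Chrng near the sarcomere sum.

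Of the wider synaptic lists in EO771 with C2C12, 7 of 10 tested genes of agrin, matrix and cholinesterase rose, 11 of 32 scaffold and MuSK partners rose, 5 of 20 regulators rose and 2 fell, 5 of 8 denervation-sensitive genes rose, and 5 of 9 LRP family genes rose. Over all genes tested, 18.7% rose and 14.3% fell. Agrn averaged 271 CPM in EO771 with C2C12 and 172 CPM in EO771 alone (log2 fold change 0.58, SE 0.16, adjusted p = 0.011 in edgeR). Lrp5, a Wnt co-receptor of Lrp4's family, averaged 160 CPM in EO771 with C2C12 and 52.3 CPM in EO771 alone (log2 fold change 1.54, SE 0.15, adjusted p = 6.2e-07 in edgeR). Myog averaged 3.41 CPM in EO771 with C2C12 and was at 0 in all libraries of EO771 alone. With MLg, 4 of the 10 matrix genes rose, 3 scaffold genes rose and 2 fell, 2 regulators rose and 6 fell, 1 denervation-sensitive gene rose and 1 fell, and 2 LRP family genes rose, over the same tested genes, where 5.99% of all genes tested rose and 3.6% fell. The 4 matrix genes were Lama4, Col4a5, Nid2 and Bgn, and 6 of the 8 tested fibroblast markers rose in the same comparison and 1 fell. The part of MLg transcripts in these rises was not tested.

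Chrnb1 and Dok7 were also present in EO771 cells grown alone. Chrnb1 had 23.4, 32.1, 32.6 and 31.0 CPM in EO771 with C2C12 (R3-1, R5-1, R5-2 and R6-1), 35.1, 36.2, 36.8 and 39.4 CPM in EO771 with MLg (R5-1, R6-1, R6-2 and R7-1) and 13.6, 18.4, 15.1 and 16.6 CPM in EO771 alone. Every co-cultured library was above every library of EO771 alone. The rise was 0.83 on the log2 scale with C2C12 (SE 0.12, adjusted p = 4.38e-05 in edgeR) and 1.22 with MLg (SE 0.12, adjusted p = 1.2e-06 in edgeR). The 2 comparisons share the libraries of EO771 alone. In a fit of all 28 libraries together the adjusted p of the rise with C2C12 was 0.0605, at a log2 fold change of 0.89.

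With MLg, Chrnb1 was the only 1 of 8 tested members called, where 9.59% of all genes tested were called (5.99% higher, 3.6% lower). MLg cells themselves had less of it than EO771 with MLg, with 14.0, 11.3, 12.0 and 9.95 CPM in MLg with EO771 (R5-1, R6-1, R6-2 and R7-1) and 9.99, 9.31, 9.76 and 9.30 CPM in MLg alone (R3-2, R5-2, R6-1 and R6-2). The log2 fold change of Chrnb1 with MLg stayed between 1.10 and 1.30 over the 16 alternatives, with adjusted p-values of at most 0.0168 in the edgeR and DESeq2 fits. Fibroblast markers moved in the same libraries: the 10 of them summed to 294 to 489 CPM in EO771 with MLg, against at most 124 CPM in EO771 alone, and 6 of the 8 tested rose, Dcn and Lum among them, and 1 fell. With MLg counts subtracted at their share in each library, the log2 fold change of Chrnb1 was 1.25 (adjusted p = 4.02e-06 in edgeR). The sarcomere and myotube markers summed to 15.4 to 22.4 CPM with MLg and 15.3 to 18.9 CPM alone, with 0 of the 19 tested ones called. The other members in EO771 with MLg stayed low: Chrna1 at 0.124 to 0.392 CPM and Lrp4 at 1.52 to 1.99 CPM, against 0.0561 to 0.675 CPM and 1.35 to 3.25 CPM in EO771 alone.

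The genes on either side of Chrnb1 also rose with C2C12, and neither was called with MLg. Zbtb4, which ends 12 bases from the end of Chrnb1 on the opposite strand, averaged 32.7 CPM in EO771 with C2C12, 15.6 CPM in EO771 with MLg and 15.0 CPM in EO771 alone; it rose with C2C12 (log2 fold change 1.05, adjusted p = 4.82e-06 in edgeR) and not beyond the spread with MLg (log2 fold change 0.07, adjusted p = 0.831 in edgeR). Fgf11, upstream of Chrnb1, averaged 4.92 CPM in EO771 with C2C12, 1.46 CPM in EO771 with MLg and 0.673 CPM in EO771 alone. It also rose with C2C12 (log2 fold change 2.79, adjusted p = 0.000221 in edgeR), and had a log2 fold change of 1.12 (adjusted p = 0.177 in edgeR) with MLg.

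Dok7 had 5.07, 3.71, 4.35 and 5.39 CPM in EO771 with C2C12, 2.68, 1.84, 1.82 and 3.01 CPM in EO771 with MLg and 2.46, 3.51, 2.60 and 3.82 CPM in EO771 alone. The libraries with C2C12 were above all of those with MLg, and overlapped those of EO771 alone. Neither difference from EO771 alone was called, at log2 fold changes of 0.50 with C2C12 (SE 0.23, adjusted p = 0.106 in edgeR) and -0.40 with MLg (SE 0.23, adjusted p = 0.373 in edgeR). Its level in EO771 with C2C12 was 136% to 197% of that in C2C12 with EO771, and Dok7 was the only member whose mean in EO771 with C2C12 was above that of both C2C12 groups.

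**Figure D5:**
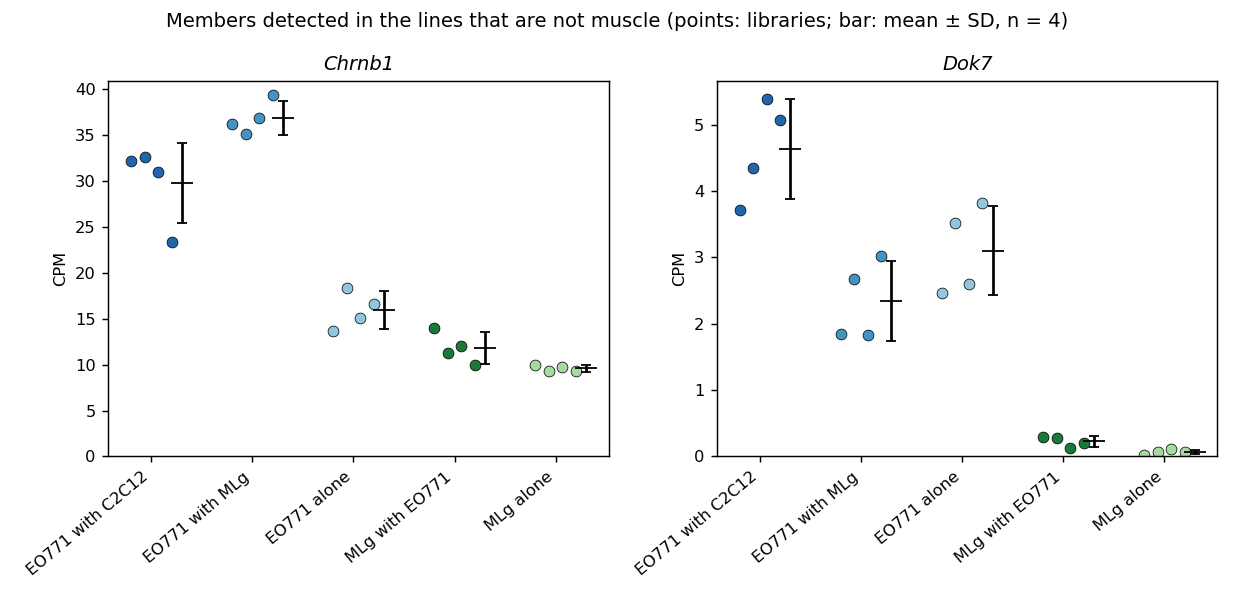
CPM of Chrnb1 and Dok7 in the EO771 and MLg groups, with each library as a point and the mean ± SD of each group (n = 4). Chrnb1 sits at 23.4 to 39.4 CPM in the co-cultured EO771 libraries, above the 13.6 to 18.4 CPM of EO771 alone, while the Dok7 libraries of EO771 with C2C12 overlap those of EO771 alone.

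A direct comparison of the 2 co-cultured EO771 groups, added after the values were seen, called 7 of 8 tested members, where 27.7% of all genes tested were called (15% higher, 12.7% lower). Here too Chrna1, Chrnd, Chrng and Musk were tested only because of their level with C2C12. The filter and the late choice of this comparison thus largely set their calls and the count of 7. Chrna1, Chrnd, Chrng, Musk, Lrp4 and Dok7 were higher with C2C12 than with MLg, and Chrnb1 was lower. Dok7 differed by 0.90 on the log2 scale (SE 0.23, adjusted p = 0.00819 in edgeR), and its adjusted p was 0.104 in the fit of all 28 libraries. Chrnb1 differed by -0.39 (SE 0.12, adjusted p = 0.0207 in edgeR). That call ended without EO771 with C2C12 R3-1 (log2 fold change -0.28, adjusted p = 0.0728 in edgeR) and with library totals in place of TMM (-0.31, adjusted p = 0.0641). It also ended in the fit of all 28 libraries (-0.39, adjusted p = 0.44 in edgeR).

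In the MLg fibroblasts, Lrp4 and Rapsn were the members beside Chrnb1 that reached 1 CPM. Lrp4, which is also a receptor in bone and Wnt signalling outside muscle, had 31.1, 36.9, 40.1 and 31.6 CPM in MLg with EO771, against 30.1, 38.0, 36.6 and 34.0 CPM in MLg alone. Rapsn had 6.51, 6.43, 5.77 and 4.86 CPM in MLg with EO771, against 3.42, 7.80, 9.30 and 7.94 CPM in MLg alone. The groups overlapped for both. None of the 5 tested members was called in MLg with EO771 against MLg alone, by edgeR or by DESeq2, where 14.7% of all genes were called. The single member with an unadjusted p under 0.05, Chrnb1, had a log2 fold change of 0.33 (SE 0.13, adjusted p = 0.103 in edgeR). Its adjusted p was 0.0402 without MLg with EO771 R7-1 (log2 fold change 0.40 in edgeR). With EO771 counts subtracted at their share in each library, its log2 fold change was 0.03. Without MLg with EO771 R6-2, Dok7 passed the count filter and was called. Dok7 averaged 2.34 CPM in EO771 with MLg, and the part of EO771 transcripts in that call was not tested.

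All 9 members were higher in C2C12 alone than in MLg alone, where 60.3% of all 18647 genes tested were called (30.7% higher, 29.7% lower). Chrna1, Chrnd, Chrne and Dok7 did not pass the count filter when the MLg libraries were fitted by themselves. They entered this comparison through the C2C12 libraries, which largely set their direction beforehand. The largest difference was that of Chrna1 (log2 fold change 12.06, SE 0.94, adjusted p = 1.02e-08 in edgeR), and the smallest was that of Chrnb1 (2.34, SE 0.43, adjusted p = 0.000179 in edgeR). Lrp4 and Rapsn differed by 3.43 (SE 0.13) and 3.45 (SE 0.31) on that scale. Without the R3 libraries Chrna1 differed by 12.79 and Chrnb1 by 3.02. Leaving out C2C12 alone R5-1 gave 11.47 for Chrna1, 8.52 for Chrnd and 7.95 for Chrng, leaving out MLg alone R6-1 gave 12.88 for Chrna1, and leaving out MLg alone R3-2 gave 9.19 for Chrng. The response of C2C12 to EO771 minus that of MLg was called for none of the 9 members, where 1.84% of all genes tested were called. DESeq2 called none either, and 1 member, Dok7, had an unadjusted p under 0.05 (log2 difference -1.79, SE 0.79, unadjusted p = 0.0375, adjusted p = 0.348 in edgeR). Without the R3 libraries Dok7 was called, at a log2 difference of -2.28 (adjusted p = 0.0358 in edgeR), with Dok7 at 0.130 to 0.296 CPM in MLg with EO771 and 0.0287 to 0.115 CPM in MLg alone. Its partner line had more of it, at 1.82 to 3.01 CPM in EO771 with MLg. The part of EO771 transcripts in this call was not tested.

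By group means the order of levels differed between members. Chrna1, Chrnd and Chrng ran from the 2 C2C12 groups, which overlapped, through EO771 with C2C12 to the rest, with no overlap between these 3 tiers except that Chrng in C2C12 alone R3-1 (10.6 CPM) was below EO771 with C2C12 R6-1 (15.9 CPM). Lrp4 and Rapsn had the MLg groups second, at 34.9 ± 4.34 CPM for Lrp4 in MLg with EO771 and 34.7 ± 3.47 CPM in MLg alone (SD, n = 4 each). For Chrnb1 the order was the 2 C2C12 groups, EO771 with MLg, EO771 with C2C12, EO771 alone and the 2 MLg groups, and C2C12 overlapped EO771 with MLg through its R3 libraries. Dok7 had its 5 C2C12 and EO771 groups at means of 2.34 to 4.63 CPM, with neighbours overlapping, and MLg lowest at 0.226 CPM in MLg with EO771 and 0.0673 CPM in MLg alone.

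The genes whose pattern was closest to each member over the 28 libraries were found by the smallest root mean square difference of centred log2(CPM + 0.5), as a description. The 12883 genes compared had a mean of at least 1 CPM over the C2C12 libraries, so genes low in C2C12 could not be found. The libraries also share lines and partner transcripts. Chrna1 was closest to Des (0.44 log2 units), the muscle intermediate filament gene, Chrnd to Mymk (0.27), which drives myoblast fusion, and Chrng to Casq2 (0.31), a calcium store protein's gene. Musk was closest to Ston2 (0.34), Lrp4 to P2rx6 (0.34), and Rapsn to Eno1b (0.52) and then, after Gm32618, Lrp4 (0.53). Chrnb1 was closest to Hist1h2bc (0.46) and Dok7 to Pfkl (0.37). Within the 8 C2C12 libraries, Chrng was closest to Casq1, Hrc and then Chrnd (0.13, 0.15 and 0.21).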

How the data were processed

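Polyadenylated RNA of 28 libraries was prepared with a TruSeq stranded mRNA kit after RNeasy extraction, per the labels' protocols. The deposited values are unnormalized counts, in a table for each library. Per the submitters' processing notes, the tools were STAR 2.7.10a, Subread 2.0.1, featureCounts, fastp and DESeq2, with no roles stated; the build, annotation and strand setting are not stated there. All 55536 Ensembl identifiers matched GENCODE M21 (GRCm38), which gave symbols, coordinates and exon lengths. In 5 libraries (EO771 with C2C12 R3-1, R5-1 and R6-1, MLg with EO771 R5-1 and R6-1) every count was even. The file names of EO771 with C2C12 R5-1 and R5-2 carry each other's name, and the recorded assignment was followed.

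Counts were tested with edgeR 4.0.16 (R 4.3.3): TMM, filterByExpr (minimum count 10, minimum total 15), quasi-likelihood F test, Benjamini-Hochberg adjustment over all genes tested, threshold 0.05. The 12 EO771 libraries were fitted together, as were the 8 C2C12 libraries, the 8 MLg libraries, and the 16 C2C12 and MLg libraries for contrasts between those lines. The edgeR fits of C2C12 with EO771 and of EO771 with C2C12, each against the line alone, were run on simulated counts. The simulated spread was the same for every gene and not taken from these data. It therefore does not show how the tests perform at the wider spread of the C2C12 members. The alternatives were RLE size factors, library totals, no filter, DESeq2 1.42.0, all 28 libraries in 1 fit, even counts halved, the R number as block, each library left out, no R3 libraries of C2C12, summed sarcomere markers as library size, and partner counts subtracted. Members, lists and lists of markers were chosen with earlier results of these data known. All 9 members are named; list genes called in C2C12 are named, and a few more of each list by their known role. All 42 replicate pairs differed by more than counting noise (chi-square over degrees of freedom at least 13.4).

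C2C12 libraries with the same R number were more alike. The 4 pairs with the same number had correlations of 0.369 to 0.688 between their deviations from the group means, against -0.76 to 0.279 in the other 12 pairs. Every negative correlation was between an R3 library and one of another number. Outside R3, pairs of different numbers had correlations of 0.15 to 0.279, so the values mainly set R3 apart from the rest.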

Additional observations from a re-analysis of the deposited data

Results flagged for a closer look

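Chrnb1 in C2C12 with EO771 R3-1 was at 17.2 CPM, far below the 60.4 to 63.4 CPM of the other 3 libraries of its group. It was the single such value among 34 combinations of member and group with a mean of at least 1 CPM, where chance flags about 1 in 20. The sarcomere and myotube markers were also lowest in that library, at 951 CPM against 2928 to 4121 CPM, and their part in the value was not tested.

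Levels differed for 7 members in the direct comparison of the libraries of EO771 with C2C12 and EO771 with MLg. Of these, Chrna1, Chrnd, Chrng and Musk passed the count filter only through the libraries with C2C12. The part of partner transcripts in these differences was not tested, beyond fits with partner counts subtracted at an estimated share. The log2 fold changes were 5.89 for Chrna1, 5.01 for Chrnd, 6.49 for Chrng, 4.86 for Musk, 1.43 for Lrp4, 0.90 for Dok7 and -0.39 for Chrnb1. Without EO771 with MLg R6-2 the value was 7.97 for Musk, and without EO771 with MLg R7-1 it was 8.03 for Chrng. The difference of Chrnb1 was not called without EO771 with C2C12 R3-1 (-0.28, adjusted p = 0.0728 in edgeR). With partner counts subtracted at the share of the C2C12-specific genes, that of Lrp4 was -0.13 (adjusted p = 0.801 in edgeR).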

How the results depend on the processing

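Subtracting C2C12 counts by the share of the 334 C2C12-specific genes turned Lrp4 to -0.95 in EO771 with C2C12 against EO771 alone and to -0.13 against EO771 with MLg. At the share of the sarcomere sum, which removes more counts by construction, it turned to -9.40 and -9.07, and 2 members were called against EO771 alone (1 higher, 1 lower) and 3 against EO771 with MLg (1 higher, 2 lower), in place of 6 and 7. In MLg with EO771 against MLg alone, the R number as replicate block gave 1 call in place of 0; there and in the EO771 comparisons, same-numbered libraries had correlations of -0.273 to 0.269 and share only a number. With the block, the calls were 7 in EO771 with C2C12 and 1 in EO771 with MLg, and Chrnb1 was not called between these groups (log2 fold change -0.34, adjusted p = 0.0587 in edgeR). Without the R3 cultures, 1 member was called lower in the C2C12 response minus the MLg response. Leaving out 1 library gave 0 calls in C2C12 with EO771, 6 to 7 in EO771 with C2C12, 1 in EO771 with MLg, 0 to 1 in MLg with EO771, 9 in C2C12 alone against MLg alone, 0 in the difference of responses and 6 to 7 in EO771 with C2C12 against EO771 with MLg. The Chrne share then ran from 1.33% to 2.74% in C2C12 with EO771 and from 1.41% to 2.32% in C2C12 alone. Calls of Rapsn in EO771 with C2C12 (5 fits and 1 library left out) and the losses for Chrnb1 and Dok7 were the other changes, whose causes were not tested; the replicate block changed no call of a member in C2C12.

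Over all genes, C2C12 with EO771 had 445 calls, 749 with DESeq2, 1176 with all 28 libraries in 1 fit, 122 with partner counts subtracted and 99 with the sarcomere markers as library size, which moved the median log2 fold change to -0.83. EO771 with MLg had 1515 calls, 847 with partner counts subtracted. MLg with EO771 had 2472, 770 with partner counts subtracted, 1627 without MLg alone R6-1 and 1569 without MLg alone R6-2. The difference of responses had 343, 752 with DESeq2 and 549 with all 28 libraries. Of the calls in EO771 with C2C12 56.7% were higher, 67.4% with library totals and 68.8% with all 28 libraries; in EO771 with MLg 62.4%, 79.7% with all 28 libraries and 45.2% with partner counts subtracted; in MLg with EO771 67.3%, and 83.7% with all 28 libraries; between EO771 with C2C12 and with MLg 54.2%, and 68.6% with library totals. Library totals moved the median between C2C12 and MLg alone to -0.18. Depth limits Chrne outside C2C12, at 6 to 18 counts a group.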
